A study of Mus musculus with 96 samples.

Results

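The clustered protocadherins are the genes of the Pcdha, Pcdhb and Pcdhg clusters, taken here as every row of the deposited count table whose gene name begins with Pcdha followed by a digit or c, Pcdhb followed by a digit, or Pcdhga, Pcdhgb or Pcdhgc. This rule found 59 of 48795 genes, 14 in the alpha cluster, 22 in the beta cluster and 23 in the gamma cluster. All lie on chromosome 18 of the GRCm38 mouse genome, in the order alpha (chr18:36930184-37187661), beta (chr18:37264938-37524479) and gamma (chr18:37661793-37841873), by the GENCODE M21 annotation. Their sequences are not printed here.

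Clustered protocadherins are cadherin-like proteins of the neuronal surface that bind like copies of themselves on other membranes. Each alpha and gamma gene has its own first exon and promoter, spliced to constant exons shared by its cluster, whereas each beta gene is a single exon with no constant region. Alternate isoforms are thought to be switched on in few and varying combinations per neuron through promoter choice guided by CTCF, cohesin and DNA methylation, while the C-type isoforms are used more evenly, and the combination on a neuron helps its branches to tell themselves from those of other neurons. The 12 alternate alpha genes (Pcdha1 to Pcdha12), the 2 C-type alpha genes (Pcdhac1 and Pcdhac2), the 22 beta genes, and the 12 gamma A, 8 gamma B and 3 gamma C genes are described below as separate groups.

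RNA was sequenced from dissected striatum and cerebral cortex of 48 mice of the C57BL/6 background at 6 months of age. Each mouse gave both tissues, so there were 96 libraries in 12 groups. The 6 genotypes, with 8 mice each (4 male and 4 female), were Q140 Msh6-/-, Q140 Msh6+/-, Q140, Msh6-/-, Msh6+/- and wild type. Q140 mice carry 1 knock-in allele of Htt, the huntingtin gene, with an expanded CAG repeat (given in the labels as heterozygous), and model Huntington's disease, in which striatal projection neurons are the most affected cells. Msh6 encodes a DNA mismatch repair protein, and the Msh6+/- and Msh6-/- mice carry 1 or 2 mutant copies of it. The design thus asks how the Q140 allele changes expression in each tissue, and whether loss of Msh6 alters that change.

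Libraries held 12403528 to 22886441 counted reads, of which 11360 to 21339, or 0.0645% to 0.114%, fell on clustered protocadherins. In striatum 57 of the 59 members passed the filter on low counts and in cortex 56. Pcdhgb8 was at 0.2 CPM (counts scaled to library size) or lower in every Q140 and wild-type striatum, a further row under the same name had 0 counts in all 96 libraries, and Pcdhb1 fell under the filter in cortex alone. Msh6 itself, which checks the genotype labels, had a median of 8.13 CPM in Q140 Msh6-/- striata (7.31 to 9.53), 8.03 CPM in Msh6-/- striata (6.93 to 11.1) and 17.6 CPM in wild-type striata (14.6 to 18.4), with no overlap between either Msh6-/- group and wild type. The tissue labels also held. The 10 markers of striatal projection neurons summed to 10072 to 11412 CPM in wild-type striata and to 364 to 399 CPM in wild-type cortices, and the 6 markers of cortical glutamatergic neurons to 20.0 to 24.6 CPM in wild-type striata and 1762 to 1927 CPM in wild-type cortices. 4 mice had libraries that stood apart. The striatum of Q140 Msh6-/- mouse 21-3 had 2795 CPM of choroid plexus and ependymal markers, against a median of 43.3 CPM in its group. The cortex of Q140 Msh6+/- mouse 14-1 had the highest astrocyte (1889 CPM) and oligodendrocyte (2215 CPM) marker sums of its group. Q140 mouse 14-2 and Msh6-/- mouse 14-3 had high beta levels. The fits within a tissue were also made without these mice, 21-3 in striatum alone and 14-1 in cortex alone. The relation between the tissues was repeated in the same way. Contrasts of striatum with cortex, summed levels and the genes that followed the beta sum are given with all mice only.

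The genes of a cluster can be told apart over part of their exons only. Alpha and gamma genes share their constant exons, and reads that lie in exons of several genes cannot be told apart by gene. The 75-base words in a gene's exons were searched for in all other genes of the annotation, members or not. A median of 98.8% occurred in no other gene for the beta genes and 42.2% for the alternate alpha genes. It was 56.0% for gamma A and 63.4% for gamma C, with Pcdha4 lowest at 10.8%. Pcdhgb1 and Pcdhga4 had 3009 words in common, against 2050 for Pcdhga1 and Pcdhga5, so they share more than the constant exons. Values of Pcdha4, of Pcdhgb1 and Pcdhga4, and of Pcdhb21 and Pcdhb22, whose exons overlap, are therefore uncertain. A pair of rows was named Pcdha11, a pair Pcdhga8 and a pair Pcdhgb8. By position the second Pcdha11 row is Pcdha10 in RefSeq and the second Pcdhga8 row is Pcdhgc4, and they are called so below. Levels between genes are compared only as CPM per kilobase of exon not shared with another gene on the same strand (unshared kilobase).

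In wild-type brain the C-type gamma genes Pcdhgc5 and Pcdhgc3 were the most abundant members in both tissues, while the third, Pcdhgc4, stood at 2.18 CPM per unshared kilobase in striatum and 3.84 in cortex. Pcdhgc5 stood at 26.4 ± 2.49 CPM per unshared kilobase in striatum and 28.8 ± 1.82 in cortex (SD, n = 8 each), and Pcdhgc3 at 22.2 ± 0.94 in striatum and 18.8 ± 1.33 in cortex. These exceeded the third-ranked member by more than their spread in cortex, where Pcdhac2 stood at 16.3 ± 0.79, and in striatum, where Pcdhga6 stood at 18.0 ± 1.75. Between groups the order of the median levels per unshared kilobase in striatum was gamma C (22.2), gamma A (8.33), C-type alpha (5.08), gamma B (3.18), beta (2.55) and alternate alpha (0.837). In cortex it was gamma C (18.8), C-type alpha (9.26), gamma A (4.73), gamma B (2.49), beta (2.05) and alternate alpha (1.35).

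Pcdha12, the alternate alpha gene nearest to the C-type promoters, was the highest of its group in striatum (3.06 ± 0.41 CPM per unshared kilobase) and cortex (5.22 ± 0.39), and Pcdha8 the lowest (0.33 ± 0.11 and 0.38 ± 0.16). The beta genes lay closer together: Pcdhb20 led in striatum (4.93 ± 0.59), Pcdhb9 in cortex (5.19 ± 0.70), and neighbouring ranks such as Pcdhb20, Pcdhb9 (4.58 ± 0.65) and Pcdhb17 (4.42 ± 0.51) in striatum differed by less than their SD. The lowest were Pcdhb1 (0.373 ± 0.162 in striatum and 0.017 ± 0.016 in cortex) and Pcdhgb8 (0.034 ± 0.028 in striatum and 0.020 ± 0.027 in cortex).

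**Figure D1:**
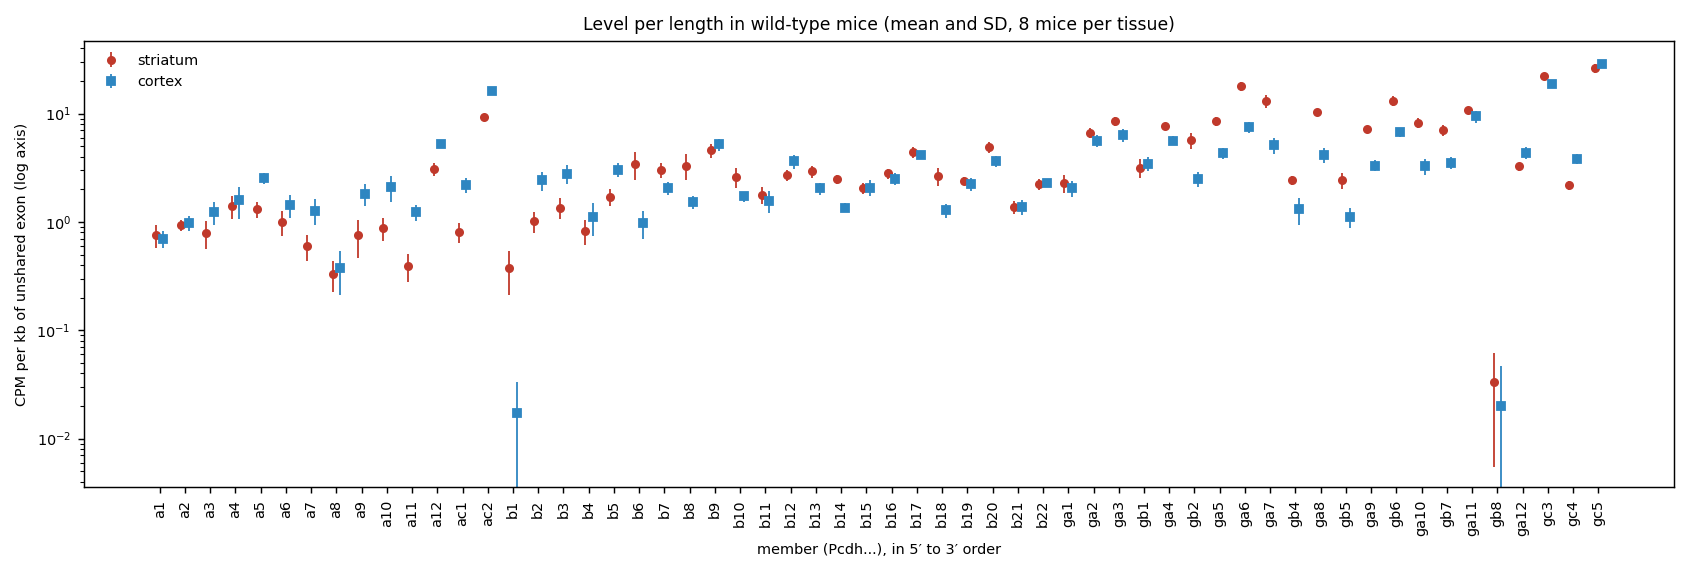
Level of each member in wild-type mice, as CPM per kilobase of exon not shared with another gene on the same strand (vertical axis, logarithmic). Members are in genomic order from alpha to gamma, for striatum (circles) and cortex (squares). Points are means and bars SD over 8 mice. Pcdhgc5 and Pcdhgc3 at the right end are the highest, at 26.4 and 22.2 in striatum, and Pcdhgb8 and, in cortex, Pcdhb1 are the lowest.

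The tissues were next compared within wild-type mice. In the fit of all 96 libraries, 26 of 57 members were higher and 18 lower in wild-type striatum than in wild-type cortex at an adjusted p under 0.05 (edgeR quasi-likelihood test, Benjamini-Hochberg over 18440 genes), where 72.2% of all genes were called (35.8% higher and 36.5% lower), so that the number of called members was near the share over all genes. Every called alternate alpha gene (8 of 12) and both C-type alpha genes were lower in striatum, whereas 10 of 12 gamma A and 5 of 6 tested gamma B genes were higher there. The beta genes were divided, with 10 higher and 5 lower of 22. In bulk tissue, a difference in the number of cells that use a gene cannot be told apart from a difference in RNA per cell, here and in every comparison below.

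On CPM scaled over both tissues, Pcdhb6 had 7.85 to 17.9 CPM (median 12.8) in wild-type striata and 2.33 to 4.99 CPM (median 3.96) in wild-type cortices. The groups did not overlap, and the log2 difference was 1.79 ± 0.20 (SE, adjusted p = 3.04e-13). Its cluster neighbour Pcdhb2 ran the other way, with 1.47 to 3.43 CPM (median 3.03) in striata and 4.66 to 8.51 CPM (median 6.94) in cortices (-1.24 ± 0.20, adjusted p = 5.9e-08), again without overlap. Pcdhb1 had a median of 0.977 CPM in striata (0.34 to 1.57) and 0.0509 CPM in cortices (0 to 0.0996), a difference of 4.22 ± 0.51 (adjusted p = 2.91e-12), so that it was close to undetected in cortex.

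Among the gamma genes, Pcdhga7 had 32.8 to 50.9 CPM (median 38.0) in wild-type striata and 12.5 to 21.2 CPM (median 14.9) in cortices (1.35 ± 0.09, adjusted p = 3.98e-26), with no overlap. Pcdhga6, Pcdhga8, Pcdhga9, Pcdhga10, Pcdhgb2, Pcdhgb5 and Pcdhgb7 were likewise higher in striatum by 1.01 to 1.32 on the log2 scale, and Pcdhga12 was the one gamma A gene that was lower (-0.42 ± 0.07). Of the C-type genes, Pcdhac2, needed in mice for the spacing of serotonergic axons, had 24.7 to 31.1 CPM (median 28.5) in striata and 45.5 to 53.4 CPM (median 49.1) in cortices (-0.81 ± 0.05, adjusted p = 1.54e-29). Pcdhac1 (-1.43 ± 0.12) and Pcdhgc4 (-0.81 ± 0.07), the gamma isoform required for neuron survival in mice, were also lower in striatum. The 2 most abundant members differed little, Pcdhgc5 by -0.12 ± 0.04 and Pcdhgc3 by 0.24 ± 0.04.

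The Q140 allele was accompanied by higher levels of most alternate alpha and beta genes and of the gamma genes at the start of their cluster in striatum, lower levels of a run of gamma genes further on, and little difference in the C-type genes. Summed over the 22 beta genes, Q140 striata held 326 ± 43.0 CPM (276 to 413) and wild-type striata 234 ± 20.7 CPM (204 to 258; SD, n = 8 each), 1.39-fold, with every Q140 mouse above every wild-type mouse. The alternate alpha sum was 35.9 ± 1.51 CPM in Q140 striata and 28.0 ± 2.43 CPM in wild-type striata, 1.28-fold, again without overlap. For gamma A the sums were 311 ± 12.7 CPM in Q140 and 286 ± 13.6 CPM in wild-type striata, for gamma B 97.2 ± 5.84 CPM in Q140 and 97.0 ± 8.06 CPM in wild-type striata, for gamma C 199 ± 11.6 CPM in Q140 and 206 ± 11.3 CPM in wild-type striata, and for C-type alpha 32.7 ± 2.28 CPM in Q140 and 30.6 ± 2.12 CPM in wild-type striata. These groups overlapped. The sums describe the clusters and carry no test.

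**Figure D2:**
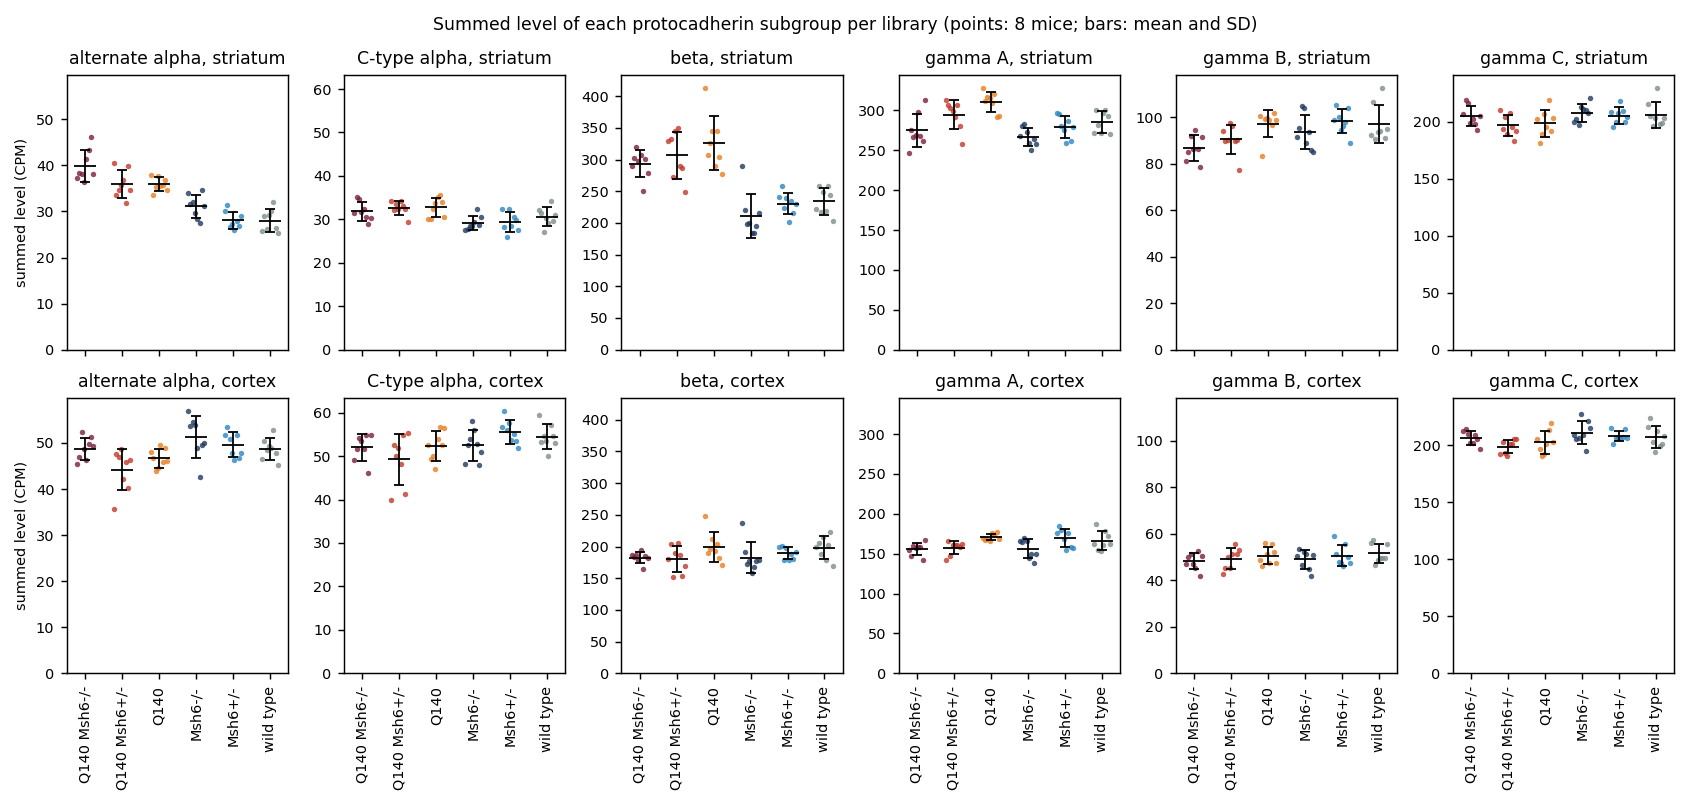
Summed CPM of each group of members (vertical axes, from 0) by genotype in striatum (top) and cortex (bottom); each point is a mouse, and bars give mean and SD of 8 mice. Beta sums average 326 CPM in Q140 striata and 234 CPM in wild-type striata, and 199 CPM in Q140 and 198 CPM in wild-type cortices.

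The tests on single genes were made in a fit of all 48 striatum libraries with sex as a covariate. For Q140 against wild type, 31 of 57 members rose and 2 fell (edgeR, adjusted p under 0.05), where 29.5% of all 17503 genes were called (15.4% higher and 14.1% lower). The median log2 fold change of the members was 0.31, against 0.01 over all genes. Called rises numbered 5 of 12 alternate alpha, 1 of 2 C-type alpha, 16 of 22 beta, 8 of 12 gamma A, 1 of 6 gamma B and 0 of 3 gamma C genes, and the 2 falls were 1 gamma A and 1 gamma B gene. No gamma C gene had an unadjusted p under 0.05 in this comparison. On the FPKM scale with limma, which calls 5366 genes higher and 1504 lower instead of 2699 and 2464, 33 members rose and 2 fell.

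The same contrast was made in mice of the other Msh6 genotypes, which share no animals with it. With Msh6+/- in both groups, 25 members rose and 5 fell (30.9% of all genes called, 16.1% higher and 14.8% lower). With Msh6-/- in both groups, 31 rose and 5 fell (32.7% of all genes, with 17.6% higher). Averaged over the 3 Msh6 genotypes, so that 24 Q140 and 24 other mice enter, 39 of 57 members rose and 7 fell, where 52.4% of all genes were called (28.9% higher and 23.5% lower). The rises were 9 alternate alpha, 1 C-type alpha, 19 beta, 9 gamma A and 1 gamma B gene, and the falls 1 beta, 3 gamma A and 3 gamma B genes. On the FPKM scale the averaged contrast gave 41 rises and 5 falls, with 8226 genes higher and 2530 lower over all genes in place of 5061 and 4119.

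Markers of other cells moved in the same striata, where 15.4% of all genes were higher and 14.1% lower in Q140 than in wild type. Of 10 markers of striatal projection neurons, 9 were lower in Q140 than in wild type (summed 6490 to 6777 against 10072 to 11412 CPM), as were 3 of 6 astrocyte, 2 of 6 oligodendrocyte, 5 of 6 microglial and 3 of 6 vessel markers. No gene listed for interneurons (7 tested), oligodendrocyte precursors (4), choroid plexus and ependyma (5) or serotonin and septal or thalamic neurons (2) passed the test. The interneuron list held Gad1 and Gad2, genes of GABAergic neurons in general, at means of 655 and 520 CPM in wild-type striata. Of 5 tested markers of cortical glutamatergic neurons 1 rose, with sums of 19.6 to 24.7 CPM in Q140 and 20.0 to 24.6 CPM in wild-type striata. The part of these shifts in the protocadherin values was not tested.

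**Figure D3:**
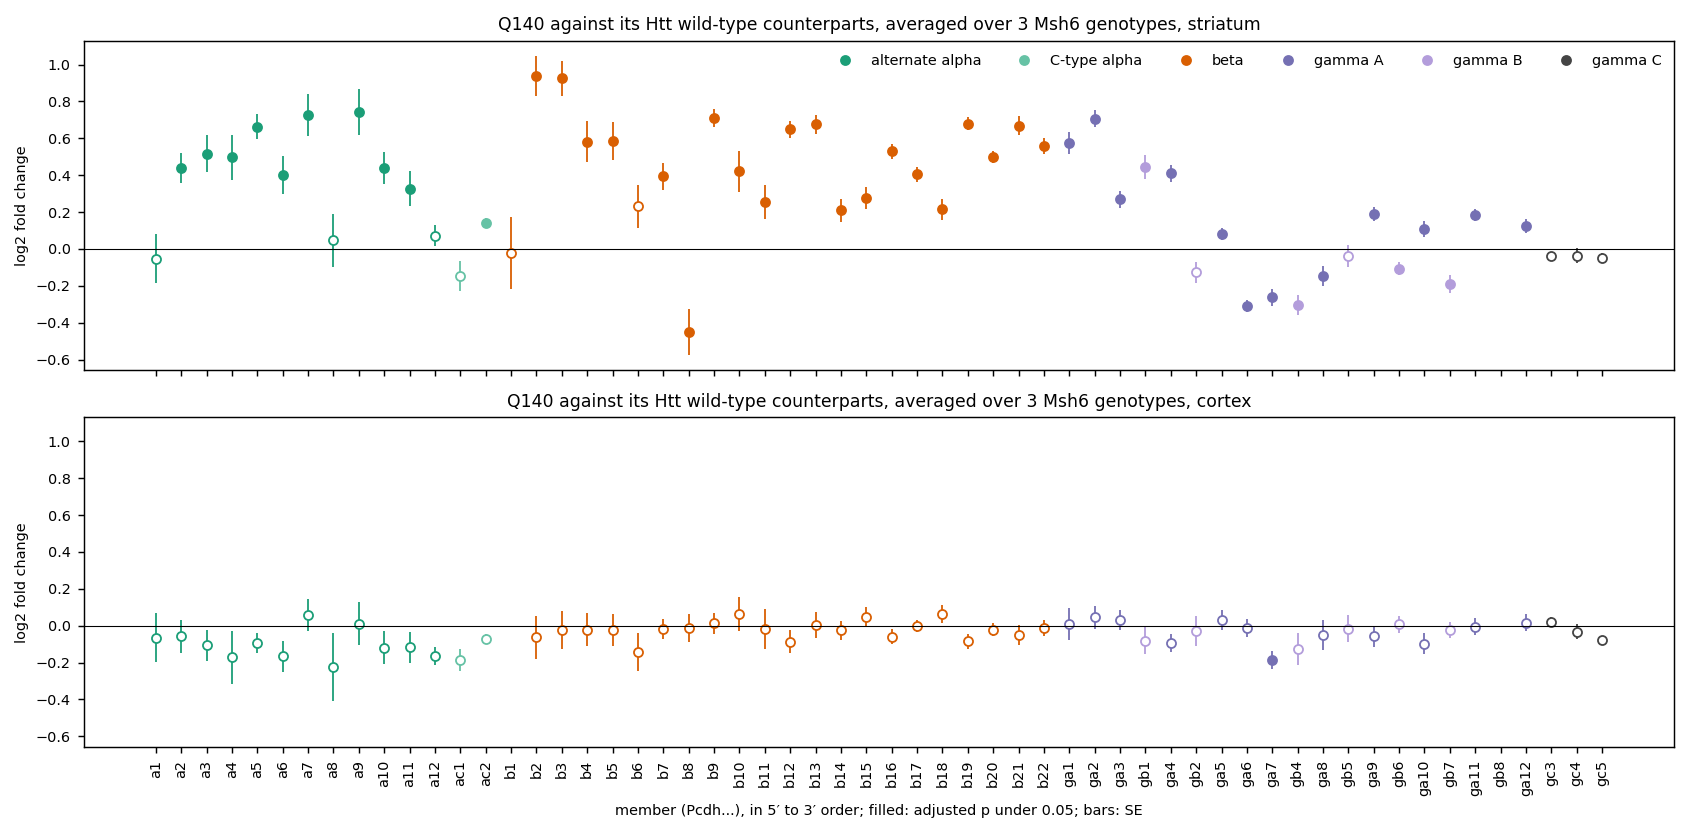
Log2 fold change of each tested member for the Q140 allele, averaged over the 3 Msh6 genotypes (vertical axes), in genomic order, for striatum (top) and cortex (bottom); bars are SE and filled points passed an adjusted p of 0.05. In striatum the beta genes lie mostly between 0.21 and 0.94 and the gamma genes pass from 0.71 at Pcdhga2 to -0.31 at Pcdhga6, while in cortex Pcdhga7 is the one filled point.

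Of the alternate alpha genes, Pcdha5 showed the clearest difference. It had 4.24 to 5.74 CPM (median 4.91) in Q140 striata and 2.40 to 4.10 CPM (median 3.15) in wild-type striata. The groups did not overlap, and the log2 fold change was 0.68 ± 0.12 (SE, adjusted p = 7.27e-06), 0.60 ± 0.12 between the Msh6+/- groups and 0.71 ± 0.12 between the Msh6-/- groups. Pcdha7 had 1.40 to 2.31 CPM (median 2.10) in Q140 and 0.782 to 1.89 CPM (median 1.32) in wild-type striata, and rose by 0.67 ± 0.20 (adjusted p = 0.00723) although the groups overlapped. Pcdha12, the most abundant alternate gene, had 5.98 to 9.18 CPM (median 8.43) in Q140 and 6.31 to 9.60 CPM (median 7.70) in wild-type striata, with wide overlap, and its averaged log2 fold change was 0.07 ± 0.06 (adjusted p = 0.308).

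In the averaged contrast, Pcdha2, Pcdha3, Pcdha4, Pcdha5, Pcdha6, Pcdha7, Pcdha9, Pcdha10 and Pcdha11 rose, by 0.33 (Pcdha11) to 0.74 (Pcdha9). Pcdha1 (-0.05 ± 0.13, adjusted p = 0.765) and Pcdha8 (0.05 ± 0.14, adjusted p = 0.812) did not pass the test. Their Q140 and wild-type ranges overlapped throughout. Of the C-type alpha genes, Pcdhac2 had 28.2 to 33.7 CPM (median 31.1) in Q140 and 25.0 to 31.4 CPM (median 28.8) in wild-type striata. These groups overlapped, the difference of 0.11 ± 0.05 only just passed the test (adjusted p = 0.0494) and was lost in 6 alternative fits, and the averaged value was 0.14 ± 0.03 (adjusted p = 6.49e-06). Pcdhac1 had 1.28 to 2.18 CPM (median 1.93) in Q140 and 1.63 to 2.84 CPM (median 2.06) in wild-type striata, with an averaged value of -0.15 ± 0.08 (adjusted p = 0.116).

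The beta genes rose almost as a block. 13 members had every Q140 striatum above every wild-type striatum, and 10 of them were beta genes (Pcdhb2, Pcdhb3, Pcdhb9, Pcdhb12, Pcdhb13, Pcdhb16, Pcdhb19, Pcdhb20, Pcdhb21 and Pcdhb22). The others were Pcdha5, Pcdhga2 and Pcdhga4. No member had every Q140 striatum below every wild-type striatum. Over all genes tested, 7.11% separated completely in either direction. Between the Msh6+/- groups 7 members separated completely upward (8.12% of all genes in either direction), and between the Msh6-/- groups 10 upward and Pcdhga7 downward (8.59%).

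Pcdhb9, the second most abundant beta gene of wild-type striatum, had 20.2 to 27.8 CPM (median 21.3) in Q140 and 11.6 to 17.7 CPM (median 14.6) in wild-type striata. The groups stood apart, and the log2 fold changes were 0.72 ± 0.08 (adjusted p = 1.69e-09) here, 0.71 ± 0.09 between the Msh6+/- groups and 0.70 ± 0.08 between the Msh6-/- groups. Pcdhb20 had 22.5 to 27.4 CPM (median 25.8) in Q140 and 14.1 to 20.3 CPM (median 18.2) in wild-type striata, without overlap, and rose by 0.52 ± 0.05 (adjusted p = 3.9e-11). Pcdhb17 had 23.7 to 32.3 CPM (median 26.2) in Q140 and 18.2 to 25.8 CPM (median 20.0) in wild-type striata, which overlapped, and rose by 0.36 ± 0.07 (adjusted p = 5.08e-05). Pcdhb19 was the member with the smallest averaged adjusted p. It stood between 26.3 and 33.3 CPM in Q140 striata and 15.1 and 19.6 CPM in wild-type striata, and the log2 fold change was 0.76 ± 0.06 in Msh6+/+, 0.51 ± 0.06 in Msh6+/- and 0.77 ± 0.06 in Msh6-/- mice.

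The largest averaged rises were those of Pcdhb2 (0.94 ± 0.11) and Pcdhb3 (0.92 ± 0.09), which lie next to each other near the start of the cluster and were also lower in striatum than in cortex in wild-type mice (-1.24 and -1.04). Pcdhb2 had 3.60 to 10.7 CPM (median 4.99) in Q140 striata, against 1.49 to 3.46 CPM (median 3.06) in wild-type striata. Pcdhb3 had 7.05 to 15.3 CPM (median 8.51) in Q140 striata, against 3.38 to 6.82 CPM (median 5.31) in wild-type striata. Neither pair of groups overlapped, and the highest Q140 values lay well above the others of their group.

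One beta gene ran against the rest. Pcdhb8 had 5.30 to 13.5 CPM (median 9.09) in Q140 striata and 8.29 to 15.8 CPM (median 11.1) in wild-type striata. The groups overlapped, and none of the separate contrasts passed the test (-0.35 ± 0.22, adjusted p = 0.233; -0.53 ± 0.22, 0.0639; -0.48 ± 0.21, 0.0866, in Msh6+/+, Msh6+/- and Msh6-/- mice), but the averaged value did, at -0.45 ± 0.13 (adjusted p = 0.00227). Pcdhb8 took 2.76 ± 0.60% of the beta counts in Q140 striata and 4.94 ± 1.02% in wild-type striata (SD, n = 8 each). The remaining beta genes that did not pass the averaged test were Pcdhb1 (-0.02 ± 0.20) and Pcdhb6 (0.23 ± 0.12, adjusted p = 0.1). The 13 beta genes without a sentence of their own rose by 0.21 (Pcdhb14 and Pcdhb18) to 0.68 (Pcdhb13). Position along the cluster did not order the effects, with a Spearman rho of -0.02 between genomic order and averaged effect over the 22 genes, given as a description.

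The gamma cluster was divided along its length. In genomic order Pcdhga1, Pcdhga2, Pcdhga3, Pcdhgb1 and Pcdhga4 all rose in the averaged contrast, by 0.58, 0.71, 0.27, 0.45 and 0.41. Pcdhgb2 did not pass (-0.13 ± 0.06, adjusted p = 0.0617) and Pcdhga5 rose by 0.08 ± 0.03. The next 4, Pcdhga6, Pcdhga7, Pcdhgb4 and Pcdhga8, all fell, by 0.31, 0.26, 0.30 and 0.15 on the log2 scale. Beyond them Pcdhga9, Pcdhga10, Pcdhga11 and Pcdhga12 rose by 0.19, 0.11, 0.19 and 0.12, while Pcdhgb6 and Pcdhgb7 fell by 0.11 and 0.19 and Pcdhgb5 did not pass (-0.04 ± 0.06). This division was noticed in the values and is a description. Pcdhgb1 and Pcdhga4 share exon sequence beyond the constant exons, so their rises may not be separate.

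Pcdhga2 had 22.3 to 32.7 CPM (median 29.5) in Q140 striata and 14.0 to 19.2 CPM (median 17.9) in wild-type striata. The groups did not overlap, and the gene rose by 0.74 ± 0.08 (adjusted p = 3.2e-10). Pcdhga1 had 8.01 to 15.2 CPM (median 10.9) in Q140 and 5.75 to 10.1 CPM (median 7.59) in wild-type striata, with some overlap, and rose by 0.55 ± 0.10 (adjusted p = 2.73e-05). Pcdhga6, the most abundant gamma A gene of wild-type striatum, had 35.7 to 43.2 CPM (median 37.8) in Q140 and 42.9 to 54.7 CPM (median 45.9) in wild-type striata. The ranges met at one end only, and it fell by 0.28 on the log2 scale (SE 0.06, adjusted p = 0.00011), and by 0.40 between the Msh6-/- groups. Pcdhga11 had 30.8 to 37.8 CPM (median 33.6) in Q140 and 25.6 to 32.1 CPM (median 28.1) in wild-type striata, and rose by 0.24 ± 0.06 (adjusted p = 0.000616) with slight overlap. Pcdhga7 had 28.8 to 46.0 CPM (median 36.4) in Q140 and 33.1 to 51.4 CPM (median 38.3) in wild-type striata, which overlapped widely (-0.16 ± 0.08, adjusted p = 0.148), but between the Msh6-/- groups it had 21.3 to 34.2 CPM in Q140 Msh6-/- and 35.5 to 41.8 CPM in Msh6-/- striata, with no overlap.

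Among the gamma B genes, Pcdhgb1 had 10.2 to 15.5 CPM (median 12.5) in Q140 and 5.92 to 11.3 CPM (median 8.19) in wild-type striata, and rose by 0.55 ± 0.11 (adjusted p = 0.000106) with the groups overlapping at their edges. Pcdhgb4 had 5.71 to 8.06 CPM (median 7.01) in Q140 and 7.64 to 9.77 CPM (median 8.52) in wild-type striata, and fell by 0.33 on the log2 scale (SE 0.09, adjusted p = 0.00535), also with overlap at the edges. Pcdhgb6 and Pcdhgb7 had the highest levels of the gamma B genes, at 13.2 ± 1.30 and 7.07 ± 0.81 CPM per unshared kilobase in wild-type striatum (SD, n = 8). Pcdhgb6 had 27.9 to 38.3 CPM (median 35.9) in Q140 and 29.3 to 39.8 CPM (median 33.8) in wild-type striata, and Pcdhgb7 14.4 to 23.3 CPM (median 16.8) in Q140 and 15.7 to 22.1 CPM (median 18.2) in wild-type striata. Both overlapped throughout in this pair (0.02 ± 0.06 and -0.08 ± 0.08), and passed the test as falls between the Msh6+/- groups (-0.18 ± 0.06 and -0.24 ± 0.08) and between the Msh6-/- groups (-0.16 ± 0.06 and -0.24 ± 0.08). The averaged fall of Pcdhgb6 was lost on the FPKM scale (-0.04).

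The C-type gamma genes did not pass the test in any of these striatal contrasts. Pcdhgc3 had 66.9 to 77.9 CPM (median 72.8) in Q140 and 68.8 to 79.1 CPM (median 76.6) in wild-type striata, and Pcdhgc5 106 to 136 CPM (median 117) in Q140 and 112 to 148 CPM (median 118) in wild-type striata. Both pairs overlapped almost fully. Pcdhgc4 had 6.37 to 8.03 CPM (median 7.40) in Q140 and 6.61 to 8.77 CPM (median 7.62) in wild-type striata. The averaged log2 fold changes were -0.04 ± 0.02 (adjusted p = 0.0766), -0.05 ± 0.03 (0.15) and -0.04 ± 0.04 (0.461) for Pcdhgc3, Pcdhgc5 and Pcdhgc4, and that of Pcdhgc3 passed the test with RLE scaling or DESeq2 (-0.05 with both).

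In cortex 0 of 56 tested members passed the test for Q140 against wild type by edgeR and 0 by DESeq2, and 1 had an unadjusted p under 0.05, where 0.017% of all genes were called. The counts were also 0 between the Msh6+/- groups (8 unadjusted, 0.148% of all genes, 0.0567% higher and 0.0908% lower, 1 member lower by DESeq2, which gave only 2 members an adjusted p) and between the Msh6-/- groups (2 unadjusted, 0.131% of all genes, 0.0454% higher and 0.0851% lower, 0 members by DESeq2). The unadjusted counts have no share of all genes beside them, since the percentages are those for the adjusted p. Averaged over the Msh6 genotypes, 1 member was called, against 1.47% of all genes (1.02% lower). Pcdhga7 fell by 0.19 on the log2 scale (SE 0.05, adjusted p = 0.0466). That call was lost without the cortex of mouse 14-1, without mice 14-2 and 14-3, without the filter, with the animal number prefix as a covariate and on the FPKM scale, whereas DESeq2 called 3 members lower. The Q140 and wild-type groups overlapped in their sums, with beta genes at 199 ± 23.3 CPM in Q140 and 198 ± 18.1 CPM in wild-type cortices, and alternate alpha genes 46.7 ± 2.03 CPM in Q140 and 48.7 ± 2.34 CPM in wild-type cortices (SD, n = 8 each). Between the Msh6+/- groups the mean of every group of members was lower with Q140, which carries no test. Alternate alpha genes summed to 44.2 ± 4.46 CPM in Q140 Msh6+/- and 49.6 ± 2.71 CPM in Msh6+/- cortices, and C-type alpha genes to 49.3 ± 5.86 CPM in Q140 Msh6+/- and 55.6 ± 2.69 CPM in Msh6+/- cortices. For these groups and for gamma C (199 ± 5.89 CPM in Q140 Msh6+/- and 208 ± 4.62 CPM in Msh6+/- cortices), 5 of 8 Q140 Msh6+/- mice lay below every Msh6+/- mouse. Mouse 14-1, whose cortex stood apart, had the lowest alternate and C-type alpha sums of its group, at 35.6 and 39.8 CPM. Between the Msh6-/- groups the ratio of sums was 0.951 for alternate alpha, 0.99 for C-type alpha and 0.978 for gamma C genes.

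The difference between the tissues was tested directly. The Q140 effect in striatum minus that in cortex was positive for 15 of 57 members and negative for none at an adjusted p under 0.05 (edgeR over 18440 genes), where 14.2% of all genes were called (7.38% positive and 6.85% negative). Of the 15, 11 are beta genes, namely Pcdhb2, Pcdhb3, Pcdhb9, Pcdhb12, Pcdhb13, Pcdhb16, Pcdhb17, Pcdhb19, Pcdhb20, Pcdhb21 and Pcdhb22. The others are Pcdha5, Pcdhga1, Pcdhga2 and Pcdhga4. With the animal as a replicate block, since each mouse gave both tissues, 26 members were positive and 1 negative, namely Pcdhga6 (-0.24 ± 0.08, adjusted p = 0.0336). The positive ones were then 5 alternate alpha, 17 beta, 3 gamma A and 1 gamma B genes. The share of all genes called in this paired fit is not given here, so these counts cannot be set against it.

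Pcdha5 shows the contrast. In cortex it had 4.78 to 6.32 CPM (median 5.44) in Q140 and 4.96 to 6.85 CPM (median 6.01) in wild-type mice, with wide overlap, against complete separation in striatum, and the difference of the effects was 0.80 ± 0.16 (adjusted p = 5.79e-05). Pcdhb2 had 4.00 to 13.6 CPM (median 6.04) in Q140 and 4.63 to 8.43 CPM (median 6.87) in wild-type cortices, and its difference of effects was 0.99 ± 0.28 (adjusted p = 0.00735). The cortical ranges of this gene also overlapped. In Q140 mice, 37 members were higher and 11 lower in striatum than in cortex (70.7% of all genes called, with 36.7% higher), and 18 of 22 beta genes were among the higher ones.

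Loss of Msh6 did not detectably change the Q140 effect on any member. The difference between the Q140 effects of Msh6+/- and Msh6+/+ mice was called for 0 members in striatum (3 with an unadjusted p under 0.05) and 0 in cortex (4 unadjusted), and that between Msh6-/- and Msh6+/+ mice for 0 in striatum (2 unadjusted) and 0 in cortex (0 unadjusted), by edgeR and by DESeq2 alike. No gene at all was called by edgeR in these 4 tests (0%). The unadjusted counts have no share of all genes beside them. The median difference over the tested members was -0.01 (Msh6+/-) and 0.01 (Msh6-/-) in striatum and -0.08 (Msh6+/-) and -0.02 (Msh6-/-) in cortex, but for single members the estimates were broad and ran, for Msh6-/- in striatum, from -0.37 (Pcdhb6) to 0.49 (Pcdha4). The alternate alpha sums in striatum were 39.9 ± 3.44 CPM in Q140 Msh6-/- and 31.1 ± 2.54 CPM in Msh6-/- mice, and 35.9 ± 2.99 CPM in Q140 Msh6+/- and 28.1 ± 1.90 CPM in Msh6+/- mice, each 1.28-fold and without overlap, as between Q140 and wild type. The beta sums were 293 ± 21.1 CPM in Q140 Msh6-/- and 211 ± 34.3 CPM in Msh6-/- striata, 1.39-fold, with 6 of 8 Q140 Msh6-/- mice above all Msh6-/- mice, since mouse 14-3 of the Msh6-/- group had 289 CPM.

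Msh6 genotype on its own was accompanied by a difference in 2 alternate alpha genes, Pcdha1 and Pcdha8. In striatum, Pcdha8 had 1.29 to 3.80 CPM (median 2.12) in Msh6-/- mice and 0.515 to 1.23 CPM (median 0.730) in wild-type mice. The groups did not overlap, which 0.0686% of all genes also showed in either direction, and Pcdha8 rose by 1.41 ± 0.24 (adjusted p = 0.000568). Pcdha1 had 2.26 to 9.22 CPM (median 4.18) in Msh6-/- striata and 1.36 to 2.62 CPM (median 1.84) in wild-type striata, with overlap at the edges, and rose by 1.27 ± 0.22 (adjusted p = 0.00135). They were 2 of the 17 genes called in this comparison (0.0971% of all genes, 0.0457% higher and 0.0514% lower), which also included Msh6 itself. No other member was called, although 15 had an unadjusted p under 0.05 and the median member stood at -0.11. The share of all genes at that unadjusted threshold is not given here, so the 15 cannot be set against it.

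The increase was also present in mice with Q140 and in cortex, where not every test passed. The cortices came from the same mice as the striata. Levels of both genes were related between the tissues of a mouse (below), so the cortex is not a separate set of animals. In striatum Pcdha8 had 1.79 to 4.73 CPM (median 2.48) in Q140 Msh6-/- and 0.244 to 1.79 CPM (median 0.756) in Q140 mice, whose ranges just met, and rose by 1.60 ± 0.23 (adjusted p = 2.04e-05). Pcdha1 had 2.61 to 5.57 CPM (median 3.32) in Q140 Msh6-/- and 1.23 to 3.69 CPM in Q140 striata, a difference of 0.96 ± 0.23 that missed the threshold (adjusted p = 0.0611). In cortex Pcdha1 had 1.95 to 5.38 CPM (median 4.07) in Q140 Msh6-/- and at most 1.94 CPM (median 1.56) in Q140 mice, without overlap (as 0.0794% of all genes in either direction), and rose by 1.39 ± 0.23 (adjusted p = 0.000574). Between Msh6-/- (2.19 to 9.77 CPM, median 3.32) and wild-type cortices (1.25 to 2.20 CPM) Pcdha1 rose by 1.19 ± 0.22 (adjusted p = 0.00321), a call lost when only these groups were fitted (adjusted p = 0.413). Pcdha8 did not pass in cortex, at 1.13 ± 0.30 (adjusted p = 0.254) between Msh6-/- and wild-type and 1.24 ± 0.31 (adjusted p = 0.112) between Q140 Msh6-/- and Q140 mice. The cortical comparison of Msh6-/- with wild type called 0.125% of all genes (0.0738% higher), and that of Q140 Msh6-/- with Q140 0.153%.

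The highest Msh6-/- value of Pcdha1 in both tissues was much above its group median. Without mice 14-2 and 14-3, Pcdha1 rose by 1.07 in striatum and 0.85 in cortex, and Pcdha8 by 1.32 in striatum, between Msh6-/- and wild-type mice, each still past the threshold. In Msh6+/- mice neither gene stood out: median Pcdha8 was 1.17 CPM in Msh6+/- and 0.730 CPM in wild-type striata, and median Pcdha1 2.20 CPM in Msh6+/- and 1.84 CPM in wild-type striata, with overlap. No member passed the test for Msh6+/- against wild type in striatum (0.0114% of all genes, 0 members with an unadjusted p under 0.05) or cortex (0.00567%, 5 members), or for Q140 Msh6+/- against Q140 in striatum (0.00571%, 9 members) or cortex (0.0113%, 11 members), by edgeR, nor by DESeq2. The percentages are for the adjusted p, and the unadjusted counts have no share of all genes beside them. The comparisons within Q140 share the Q140 mice, and those without it the wild-type mice. Pcdhga11 was the one further call: it had 23.1 to 34.1 CPM (median 27.5) in Q140 Msh6-/- and 30.8 to 37.8 CPM (median 33.6) in Q140 striata, with overlap, and fell by 0.25 on the log2 scale (SE 0.06, adjusted p = 0.0372, where 0.137% of all genes were called, 0.0743% higher and 0.0628% lower). That call was lost in 5 of the alternative fits, among them the one without mouse 21-3 (adjusted p = 0.11).

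**Figure D4:**
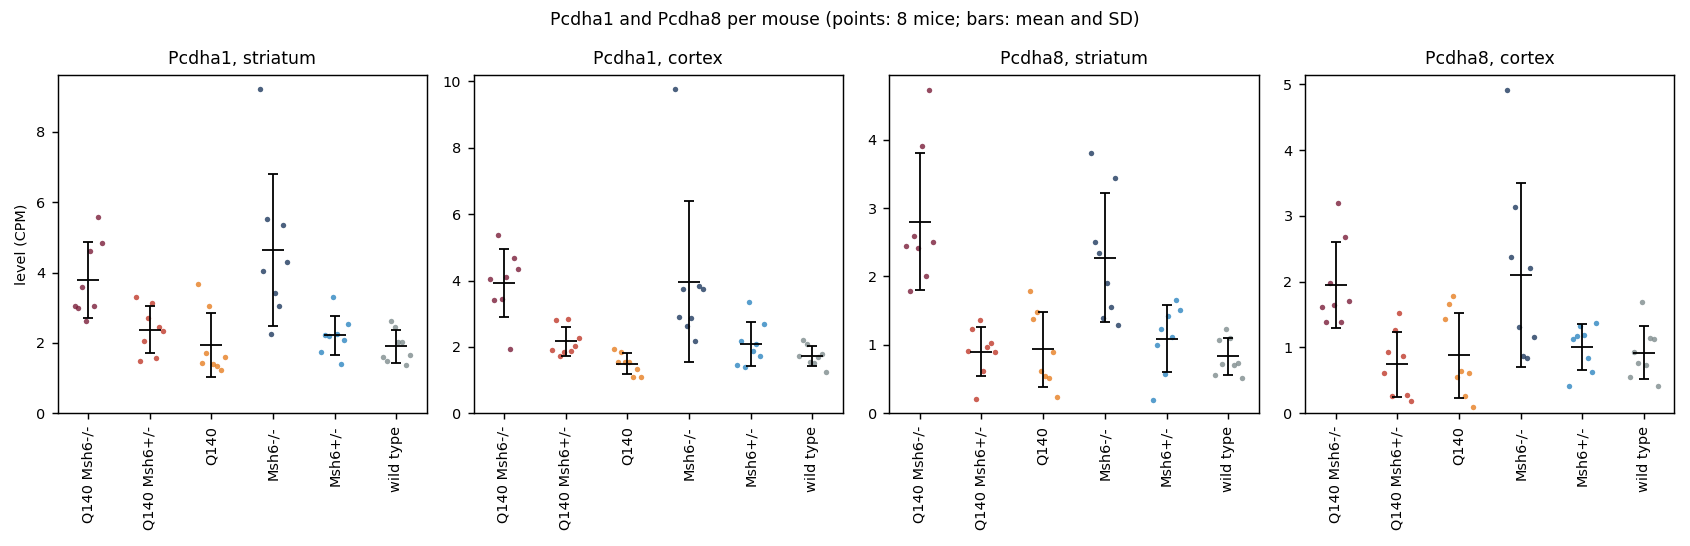
CPM of Pcdha1 and Pcdha8 (vertical axes, from 0) in the 6 genotypes, for striatum and cortex; each point is a mouse, and bars give mean and SD of 8 mice. The means of both Msh6-/- genotypes lie above those of the other 4 in each panel, with wide spread, and single mice overlap.

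Male and female mice differed in a few members. Averaged over genotypes, 3 members were higher and 8 lower in male than in female striata, where 5.26% of all genes were called (2.32% higher and 2.94% lower). Pcdhga1 was higher, with 5.75 to 15.2 CPM (median 10.1) in 24 male and 4.75 to 11.4 CPM (median 7.51) in 24 female striata (0.37 ± 0.06, adjusted p = 7.51e-05), as were Pcdhga2 (0.19 ± 0.05) and Pcdhgc4 (0.16 ± 0.04). Pcdha8 was lower, with 0.195 to 2.59 CPM (median 0.963) in male and 0.550 to 4.73 CPM (median 1.40) in female striata (-0.76 ± 0.14, adjusted p = 0.000444). Pcdha2 (-0.41 ± 0.08), Pcdhb6 (-0.49 ± 0.12), Pcdhb14 (-0.23 ± 0.06), Pcdhga5, Pcdhga6, Pcdhga10 and Pcdhga11 (-0.13 to -0.17) were lower too, and all these ranges overlapped between the sexes. Without mice 14-2 and 14-3 the call of Pcdhb14 was lost (adjusted p = 0.0554).

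In cortex 2 members were lower in male mice and 0 higher, where 6.23% of all genes were called (3.43% lower). Pcdha8 was again one of them, with 0.092 to 1.98 CPM (median 0.844) in male and 0.612 to 4.91 CPM (median 1.35) in female cortices (-0.90 ± 0.18, adjusted p = 0.00126). Pcdhb2, the other, had 2.98 to 7.77 CPM (median 4.74) in male and 3.97 to 13.6 CPM (median 6.07) in female cortices (-0.37 ± 0.12, adjusted p = 0.0478), and lost its call without mice 14-2 and 14-3 (-0.23, adjusted p = 0.106). Both ranges overlapped.

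Because each mouse gave both tissues, the level of a member in 1 tissue could be set against its level in the other over 48 mice, after genotype and sex means were removed from log2(CPM + 0.5). Over 16806 genes tested in both tissues the median Pearson r was 0.162, and 11.7% passed an adjusted p of 0.05 (permutation test, 100000 permutations, Benjamini-Hochberg over 16806 relations). Of 56 members 22 passed, all with a positive r (19 by Spearman's rho), and the median r was 0.377. These were 13 of 21 beta, 5 of 12 alternate alpha (Pcdha1, Pcdha6, Pcdha8, Pcdha9 and Pcdha10) and 4 of 12 gamma A genes (Pcdhga2, Pcdhga7, Pcdhga10 and Pcdhga11, of which 1 passed by Spearman's rho). No C-type alpha, gamma B or gamma C gene passed.

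Among the beta genes the relation was strongest at the start of the cluster. All 10 genes from Pcdhb2 to Pcdhb11 passed, with a median r of 0.742, and 3 of 11 from Pcdhb12 to Pcdhb22 (Pcdhb13, Pcdhb14 and Pcdhb20), with a median r of 0.337; this division was made after the values were seen and carries no test. The first 10 also varied more between mice of a group, with a median SD in striatum of 0.313 on the log2 scale, against 0.146 for the later 11 and 0.115 over all genes. Pcdhb6 had an r of 0.74 and a rho of 0.72 (permutation p = 2e-05 and 1e-05, the smallest that these permutations can give being 1e-05, adjusted p = 0.000875 and 0.000678), and an r of 0.67 without the 2 mice farthest from the median in striatum. Pcdhb2 had an r of 0.79 and a rho of 0.71 (permutation p = 2e-05 and 1e-05, adjusted p = 0.000875 and 0.000678), and 0.68 without its 2 farthest mice. Pcdhb19 did not pass, with an r of 0.31 and a rho of 0.38 (permutation p = 0.056 and 0.019, adjusted p = 0.211 and 0.114), nor did Pcdhgc5 (0.17 and 0.18, permutation p = 0.29 and 0.24, adjusted p = 0.55 and 0.497).

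In Msh6-/- mouse 14-3, 18 of 21 beta genes lay above the mean of its genotype and sex in both tissues (median deviation 0.285 on the log2 scale), and in Q140 mouse 14-2 15 of 21 (0.265). In Q140 mouse 29-3, 19 of 21 lay below in both (-0.240). Such counts were not confined to these mice, although the median deviations of the following were smaller. Wild-type mouse 13-2 had 17 above (0.156), Q140 mice 22-2 and 24-1 had 16 above (0.130 and 0.135), and wild-type mouse 16-2 had 17 below (-0.127). Without mice 14-2 and 14-3 the relation passed for 19 members, among them again all 10 genes from Pcdhb2 to Pcdhb11, whose median r was then 0.648. Whether the libraries of a mouse share more than the animal is not given in the labels, and the part of any shared handling in the relation was not tested.

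**Figure D5:**
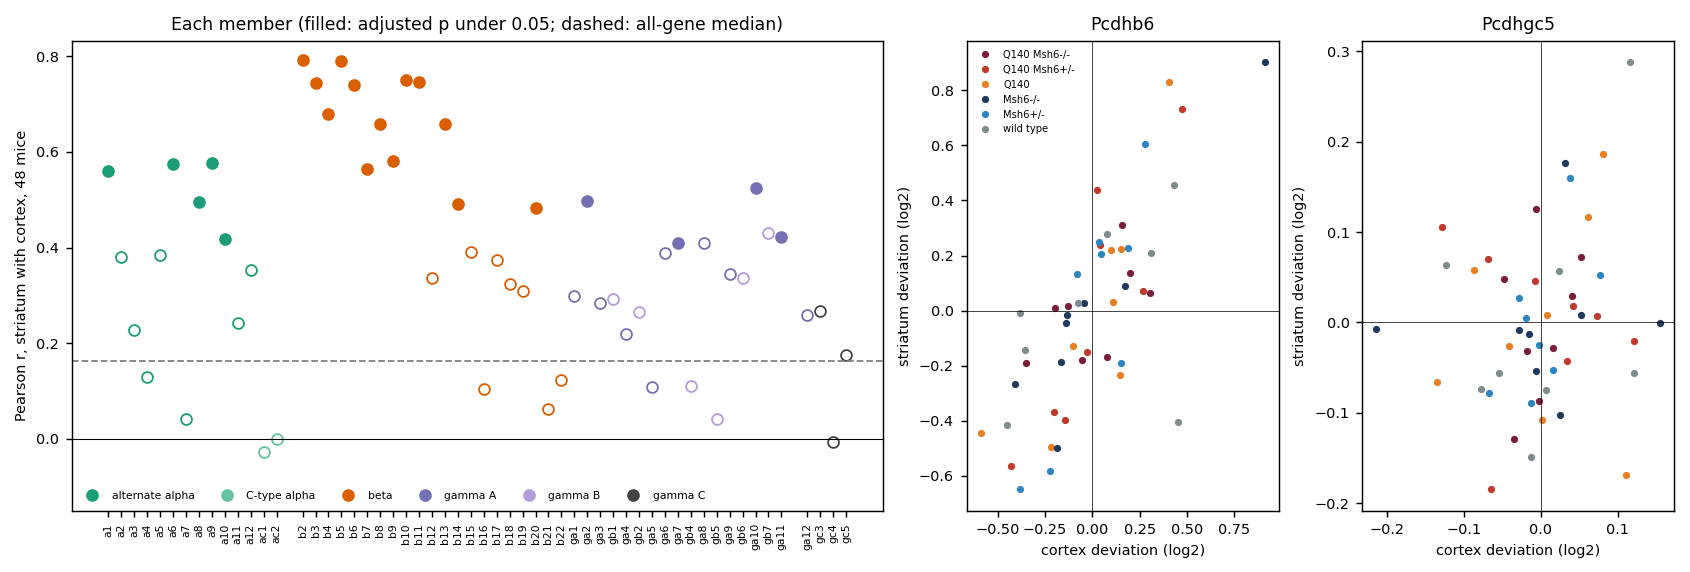
Left, Pearson r between striatum and cortex over 48 mice (vertical axis) for each member in genomic order, filled where the adjusted p was under 0.05, with the all-gene median of 0.162 as a dashed line. Middle and right, deviation of log2(CPM + 0.5) from the genotype and sex mean in striatum (vertical axes) against that in cortex (horizontal axes), 1 point per mouse coloured by genotype: Pcdhb6 follows a rising line (r of 0.74), whereas Pcdhgc5 shows a loose cloud (0.17).

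Genes that act with the clusters were followed as lists. Of 23 architecture and chromatin regulators of the clusters, 4 rose and 5 fell in Q140 against wild-type striata (median 0.06 on the log2 scale), where 29.5% of all genes were called (15.4% higher and 14.1% lower). Tet2, which oxidises methylated cytosine, had 97.1 to 110 CPM (median 105) in Q140 and 84.0 to 98.4 CPM (median 88.7) in wild-type striata and rose by 0.23 ± 0.04 (adjusted p = 1.55e-06), and Tet1, of the same enzyme family, rose by 0.26 ± 0.07. Dnmt3a, a DNA methyltransferase, had 153 to 172 CPM (median 162) in Q140 and 167 to 197 CPM (median 181) in wild-type striata and fell by 0.16 on the log2 scale (SE 0.04, adjusted p = 0.000341). Rad21, a cohesin subunit, rose by 0.08 ± 0.02. All 4 pairs of ranges overlapped. The remaining called rise was that of Stag2 (0.10 ± 0.03). Tet3 (-0.10 ± 0.03), Stag1 (-0.10 ± 0.04), Ctcf (-0.09 ± 0.03) and Atf7ip (-0.10 ± 0.04) were called as falls, so the Tet genes did not all move one way. Averaged over the Msh6 genotypes 11 of the 23 rose and 4 fell, where 28.9% of all genes were higher and 23.5% lower.

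Of 19 intracellular partners and processing enzymes, 2 rose and 7 fell (median -0.04), against 15.4% higher and 14.1% lower over all genes. Those with the smallest adjusted p were 3 members of the WAVE actin-regulating complex and a kinase that protocadherin tails bind. Cyfip2 had 920 to 1007 CPM (median 962) in Q140 and 1161 to 1362 CPM (median 1260) in wild-type striata, without overlap, and fell by 0.40 on the log2 scale (adjusted p = 2.05e-11). Nckap1 fell by 0.29, Abi1 by 0.31 and the kinase gene Ptk2b by 0.22. The WAVE complex genes did not all move one way. Brk1 (-0.25 ± 0.04) and Abi2 (-0.17 ± 0.03) also fell, Cyfip1 rose (0.08 ± 0.03) and Wasf1 did not pass (-0.02 ± 0.03). The other called rise of the list was that of Marcks (0.38 ± 0.07).

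Of 11 tested non-clustered protocadherins, which are single genes outside the clusters, 5 rose and 1 fell (median 0.11), against the same 15.4% and 14.1% of all genes. Pcdh19 had 18.7 to 32.3 CPM (median 25.0) in Q140 and at most 19.0 CPM (median 13.5) in wild-type striata and rose by 0.87 ± 0.11 (adjusted p = 7.33e-09), with the ranges meeting at their edges. Pcdh20 rose by 1.27 ± 0.10 and Pcdh10 by 0.32 ± 0.05, whereas Pcdh7 fell by 0.21 on the log2 scale.

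Of 17 tested genes that lie beside or between the clusters, 6 rose and 2 fell (median 0.06), again against 15.4% and 14.1% of all genes. Taf7, a subunit of the TFIID initiation factor that lies between the beta and gamma clusters, had 4.95 to 6.16 CPM (median 5.65) in Q140 and 6.31 to 7.38 CPM (median 6.94) in wild-type striata, without overlap, and fell by 0.31 on the log2 scale (adjusted p = 0.00444). Wdr55 rose by 0.26 ± 0.07, Fchsd1 by 0.36 ± 0.10 and Hdac3, a histone deacetylase, by 0.09 ± 0.03. In cortex none of the genes of these 4 lists was called for Q140 against wild type, and 1 (an intracellular partner, higher) in the averaged contrast.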

How the data were processed

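The authors deposited a table of read counts per gene and a table of FPKM (fragments scaled by gene length and library depth), each with 96 columns. Per the submitters' processing notes the tools were STAR 2.7.5c, SAMtools 1.10 and HTSeq 0.12.3 on GRCm38, and per the labels the libraries were TruSeq stranded; neither the strand setting nor the annotation is given in the sources used here. FPKM lengths equal the GENCODE M21 exon bases of 58 of 58 members with a match, shared constant exons included.

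Counts were filtered with filterByExpr (minimum count 10, minimum total 15), scaled by TMM and fitted per tissue over 48 libraries with genotype and sex, using robust edgeR 4.0.16 quasi-likelihood tests in R 4.3.3 and Benjamini-Hochberg adjustment over all genes tested (threshold 0.05). Tissue contrasts used all 96 libraries. Errors of fold changes are SE. CPM are TMM-scaled. Alternatives were DESeq2 1.42.0, RLE scaling, no filter, a covariate for the prefix of the animal number, sex left out, separate fits, limma 3.58.1 on log2(FPKM + 0.1) or log2(FPKM + 1), which understates changes of low genes, and fits without single mice; those without mice 14-2 and 14-3 and without the cortex of 14-1 were chosen after seeing the data. Counts were also simulated for 17503 genes, with 67, 67 and 66 genes above 1 CPM changed by log2 sizes of 0.3, 0.5 and 1. Recovery was 58.2%, 86.6% and 100%, and 9 of 17303 unchanged genes were called. In the data 29.5% of genes were called for Q140 against wild type in striatum. With so few genes changed in the simulation, its recovery rates do not carry over to that contrast.

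Genes described singly were the 2 of highest FPKM and the 2 of smallest p in each group of members, those that moved against their group and those called for Msh6, sex or the tissue difference; from other lists, up to 4 of smallest adjusted p. Members and lists were chosen with earlier results of these data known. The labels give 1 animal number for both tissues, and over 16806 genes the deviations of a mouse's tissues correlated with a median r of 0.162 (-0.0793 to 0.314), against -0.00388 for other mice, so the mouse was used as a replicate block in an alternative fit.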

Additional observations from a re-analysis of the deposited data

Results flagged for a closer look

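Among 148 groups of 8 mice examined for a single library far from the others, 8 were marked, where chance marks about 1 in 20 groups. The summed beta level of Msh6-/- mouse 14-3 was 289 CPM in striatum (next 220) and 237 CPM in cortex (next 192). Q140 mouse 14-2 had the highest Pcdhb17 of its group in striatum (32.3 CPM, next 27.6) and the highest Pcdhb9 in cortex (24.8 CPM, next 17.9). Q140 Msh6+/- mouse 26-4 had the lowest striatal sums of its group for C-type alpha (29.4 CPM, next 32.2) and gamma B genes (77.1 CPM, next 89.6). Q140 mouse 18-5 had the lowest gamma B sum of its group in striatum (83.2 CPM, next 96.7), and Q140 mouse 29-3 the lowest Pcdha7 (1.40 CPM, next 2.00).

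The Q140 effect differed between the tissues for 15 members by the test of the difference itself. On the log2 scale, striatum minus cortex, it was 0.80 for Pcdha5. For the beta genes it was 0.99 for Pcdhb2, 0.78 for Pcdhb3, 0.59 for Pcdhb9, 0.65 for Pcdhb12, 0.58 for Pcdhb13, 0.60 for Pcdhb16, 0.37 for Pcdhb17, 0.82 for Pcdhb19, 0.53 for Pcdhb20, 0.68 for Pcdhb21 and 0.60 for Pcdhb22. For the gamma A genes it was 0.56 for Pcdhga1, 0.59 for Pcdhga2 and 0.47 for Pcdhga4. These values come from the fit that does not pair the tissues of a mouse. With the animal as a replicate block more members passed, among them Pcdhga6 in the negative direction (-0.24 ± 0.08). The share of all genes called in that fit is not given here.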

How the results depend on the processing

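Of 713 alternative values for single members, 691 kept their direction and side of the threshold, 16 lost the call, 6 gained it and 0 changed sign with a call; of 206 alternative counts of called members, 186 stayed within 1.5 times. The 33 members called for Q140 against wild type in striatum ranged from 29 to 37 over the alternatives and the 46 of the averaged contrast from 44 to 47. With the animal as a replicate block, the 15 members of the tissue difference became 27; the block moved no other count of members by over 1.5 times, and among the members described singly it changed the call of Pcdhb9 alone in wild-type striatum against cortex (-0.18 on the log2 scale, then past the threshold). For Q140 Msh6-/- against Q140 in striatum, 2 members became 1 with no sex term, the prefix covariate, only the groups compared, or FPKM, 5 with DESeq2, and 1 to 1 without single replicates (mouse 21-3). For the averaged contrast in cortex, 1 became 0 with no filter, the prefix covariate or FPKM, 3 with DESeq2, and 0 to 0 without mice 14-2 and 14-3 or the cortex of 14-1. In cortex, for Msh6-/- with wild type and likewise Q140 Msh6-/- with Q140, 1 became 2 with the prefix covariate and 2 without mice 14-2 and 14-3. Q140 Msh6+/- against Msh6+/- in cortex gave 1 with DESeq2 instead of 0. Male against female in cortex gave 1 with no filter and 6 with DESeq2 instead of 2. The gamma A log2 ratio of sums, 0.12, was 0.19 on the FPKM scale. The cause of these shifts was not tested. Members under about 2 CPM have few reads per library, which limits what can be detected for them.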

Other observations

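The summed beta level of each library was set against every tested gene other than the clustered protocadherins, which were left out of the search, after genotype means were removed. In the 48 striatum libraries the genes that followed it most closely were B230209E15Rik on chromosome 7 (Pearson r = 0.78), Obox3-ps7 (0.65), 1700030C10Rik (0.62), Gm14403 (0.61) and Gm3604 (0.59). In the 48 cortex libraries they were B230209E15Rik (0.71), Obox3-ps7 (0.64), Zfp820 (0.62), 1700030C10Rik (0.62) and Olfr78 (0.61). These are descriptions over libraries that share mice between the tissues.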
